A study of Mus musculus with 15 samples.

Results

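Trappc8, Trappc9, Trappc10, Trappc11, Trappc12 and Trappc13 encode the subunits that set the larger TRAPP complexes, TRAPPII and TRAPPIII, apart from the core that both share. They were chosen by name, as the TRAPPII subunits Trappc9 and Trappc10 and the TRAPPIII subunits Trappc8, Trappc11, Trappc12 and Trappc13, and make up 6 of the 23337 gene symbols counted in each library. All 6 were found, 3 under these symbols and 3 under older RefSeq synonyms (Trappc11 as D030016E14Rik, Trappc12 as Ttc15 and Trappc13 as 2410002O22Rik). All 6 were among the 15181 genes with enough counts to be tested.

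TRAPP (transport protein particle) complexes tether vesicles in the early secretory pathway and activate Rab GTPases by exchanging their nucleotide. A small core, to which Trappc1 belongs, carries the exchange activity. The added subunits direct it, in TRAPPII towards Golgi and recycling traffic and Rab11, and in TRAPPIII towards traffic from the endoplasmic reticulum and autophagy through Rab1. In bone marrow, progenitors on the granulocyte path make large amounts of secretory cargo, because granule enzymes such as myeloperoxidase and elastase pass through this route.

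The study sequenced RNA of myeloid progenitors sorted from the bone marrow of untreated mice, in 15 libraries. Common myeloid progenitors (CMP) were lineage-, Sca1-, CD117+, CD34+ and CD16/32 low, and granulocyte-monocyte progenitors (GMP) were sorted by the same markers but CD16/32 high. The genotype labels are Trappc1KO (KO) and Trappc1WT (WT). There were 4 libraries each of WT CMP, KO CMP and WT GMP and 3 of KO GMP, numbered 1, 3 and 4; a KO GMP library 2 was not analysed here. The sources used here do not state how or in which cells Trappc1 was deleted, nor the age, sex or strain of the mice. Nothing in the labels ties libraries to separate animals; the p-values therefore reflect only library-to-library spread, part of which may be technical.

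Promoter sequence was read for the subunits on whose levels the results turn. The 250 bases before the annotated start are printed 5′ to 3′ for Trappc10 (chr10:78244646-78244895, minus strand) and Trappc11 (chr8:47533471-47533720, minus strand), the 2 subunits that were higher in GMP. Trappc13 (chr13:104178467-104178716, minus strand) stands beside them as a subunit that passed no test with all libraries in the fit, and was chosen for this after its values were seen. Sequences and starts are from RefSeq on GRCm38.p6, whose promoter table held 4 of the 6 subunits. Capitals mark every match on either strand to a CCAAT box (CCAAT), a GC box (GGGCGG), an ETS core (CCGGAAG), an E-box of the TFEB family (CACGTG) or a cyclic AMP response element (TGACGTCA).
Trappc10: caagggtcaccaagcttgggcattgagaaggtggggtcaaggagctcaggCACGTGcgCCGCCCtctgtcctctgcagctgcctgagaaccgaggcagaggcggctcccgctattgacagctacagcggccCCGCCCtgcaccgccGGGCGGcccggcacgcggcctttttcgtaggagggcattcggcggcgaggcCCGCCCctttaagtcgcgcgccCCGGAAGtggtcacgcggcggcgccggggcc
Trappc11: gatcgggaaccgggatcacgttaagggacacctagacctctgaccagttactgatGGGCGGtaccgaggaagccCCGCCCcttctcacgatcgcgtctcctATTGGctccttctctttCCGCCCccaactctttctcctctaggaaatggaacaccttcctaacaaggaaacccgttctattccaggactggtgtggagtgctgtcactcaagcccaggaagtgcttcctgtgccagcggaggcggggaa
Trappc13: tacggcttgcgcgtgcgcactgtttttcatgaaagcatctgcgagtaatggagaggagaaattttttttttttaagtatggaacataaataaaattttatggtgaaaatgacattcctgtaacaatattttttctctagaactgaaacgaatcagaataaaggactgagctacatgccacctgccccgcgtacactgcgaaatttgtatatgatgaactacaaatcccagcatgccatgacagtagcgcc
The Trappc10 sequence held 4 GC boxes, 1 ETS core at 31 to 25 bases before the start and 1 E-box at 200 to 195 bases before it, and was 70.8% G or C. The Trappc11 sequence held 3 GC boxes and 1 CCAAT box and was 56.8% G or C. The Trappc13 sequence held none of the 5 motifs and was 39.2% G or C, against a median of 52.4% over all promoters. Over the 32851 promoters of the table, a GC box was present in 32.7%, a CCAAT box in 33.8%, an ETS core in 6.9%, this E-box in 6.0% and the cyclic AMP element in 1.5%. Trappc12, the other subunit searched, also passed no test with all libraries in the fit. Its sequence held 1 GC box and was 56.8% G or C, as that of Trappc11 was. A match is a description of the letters and says nothing about binding.

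Trappc1, the targeted gene, was lower in the KO libraries, without overlap of the genotypes in either sort, but did not pass the test over all libraries. It measured 18.4, 26.2, 18.8 and 25.2 CPM (counts scaled to a common library size, with TMM factors) in WT CMP libraries 1 to 4 and 5.56, 3.83, 11.7 and 13.4 CPM in KO CMP libraries 1 to 4. In GMP it measured 41.3, 37, 30.9 and 33.3 CPM in WT and 6.09, 24.1 and 25.2 CPM in KO libraries 1, 3 and 4. EdgeR's quasi-likelihood fit gave a log2 change of -1.36 ± 0.41 for CMP, with an adjusted p of 0.243, and of -0.95 ± 0.45 for GMP, with an adjusted p of 0.77. In edgeR's fit by number set, the KO level in CMP numbers 1 and 2 was 0.21 times that of WT (adjusted p = 1.03e-05). In GMP numbers 1 and 2, where KO has only library 1, it was 0.155 times. In CMP numbers 3 and 4 it was 0.573 times (adjusted p = 0.263). In GMP numbers 3 and 4 the KO level was 0.768 times that of WT (adjusted p = 1), so most of the Trappc1 RNA counted in WT was still counted in those KO libraries. Genes without overlap in either direction made up 6.85% of those tested in CMP and 7.34% in GMP. Libraries totalled 61.3 to 120.3 M deposited counts, or about 15.3 to 30.1 M fragments if 4 counts are taken as 1 fragment. The libraries also parted by number: Fcgr3, which encodes the CD16 antigen of the gate, measured 99.5 and 115 CPM in WT CMP libraries 1 and 2, 12.9 and 18.8 CPM in KO CMP libraries 1 and 2, and 28.1 to 39.3 CPM in CMP libraries 3 and 4 of both genotypes. It measured 125 CPM in KO GMP library 1 and 239 to 315 CPM in the other GMP libraries. Xist, the X-inactivation RNA, measured 109, 204 and 123 CPM in KO CMP libraries 1 and 2 and KO GMP library 1, and at most 2.17 CPM elsewhere. The Y-linked genes Ddx3y, Kdm5d, Uty and Eif2s3y were detected in every library, and Kdm5d measured 28.4, 30.4 and 33.1 CPM in those 3 libraries and 24.3 to 34.6 CPM in the others. Stromal genes (Col1a1, Col3a1, Cxcl12, Sparc, Adipoq) summed to 123, 175 and 62.7 CPM in those 3 libraries and to 0.71 to 18.4 CPM in the others. Kit and Cd34 were at 206 CPM or more in every library, and the T cell gene Cd3e was at most 2.53 CPM. Results are therefore also given for numbers 1 and 2 apart from numbers 3 and 4, except for GMP against CMP, which was not fitted by number set.

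Set against gene length, Trappc9 was the lowest of the 6 subunits in WT cells and Trappc10 the highest in GMP. Levels between genes are compared as CPM per kilobase of the union of exons, with means and SDs over libraries. In WT CMP (n = 4) the order was Trappc13 at 10.9 ± 1.29, Trappc10 at 10.2 ± 2.82, Trappc11 at 9.23 ± 1.01, Trappc12 at 6.58 ± 0.29, Trappc8 at 5.55 ± 1.09 and Trappc9 at 5.08 ± 0.311 CPM per kilobase. Between neighbours in that order, only Trappc11 (lowest library 8.12) and Trappc12 (highest library 6.85) did not overlap. In WT GMP (n = 4) the order was Trappc10 at 14.3 ± 0.933, Trappc11 at 12.4 ± 0.729, Trappc13 at 11.8 ± 1.1, Trappc12 at 6.81 ± 0.457, Trappc8 at 6.42 ± 0.712 and Trappc9 at 5.05 ± 0.662 CPM per kilobase. Here Trappc10 (lowest library 13.3) stood clear of Trappc11 (highest 13.0), and Trappc13 (lowest 10.5) of Trappc12 (highest 7.47); the other neighbours overlapped.

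In KO GMP (n = 3) the order of mean levels was that of WT GMP, from Trappc10 at 13.4 ± 0.563 to Trappc9 at 5.02 ± 0.386 CPM per kilobase. In KO CMP (n = 4) Trappc13 led at 11.0 ± 0.549, followed by Trappc11 at 8.71 ± 0.516 and Trappc10 at 7.95 ± 0.988 CPM per kilobase, and Trappc8 was lowest at 4.78 ± 1.01. Over the 4 groups the subunits' mean levels lay above those of 51.2% to 74.9% of the 14912 tested genes with a length, so all are moderately expressed. The order depends on the length used. With the longest transcript in place of the union, Trappc12 in WT CMP measured 15.5, between Trappc13 at 15.9 and Trappc8 and Trappc11 at 12.9 CPM per kilobase. Trappc9 then became the lowest subunit in KO CMP too, and Trappc10 became the highest in WT CMP, at 16.4. Trappc10 was the highest in both GMP groups, and Trappc9 the lowest in WT CMP and both GMP groups, under both lengths.

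**Figure D1:**
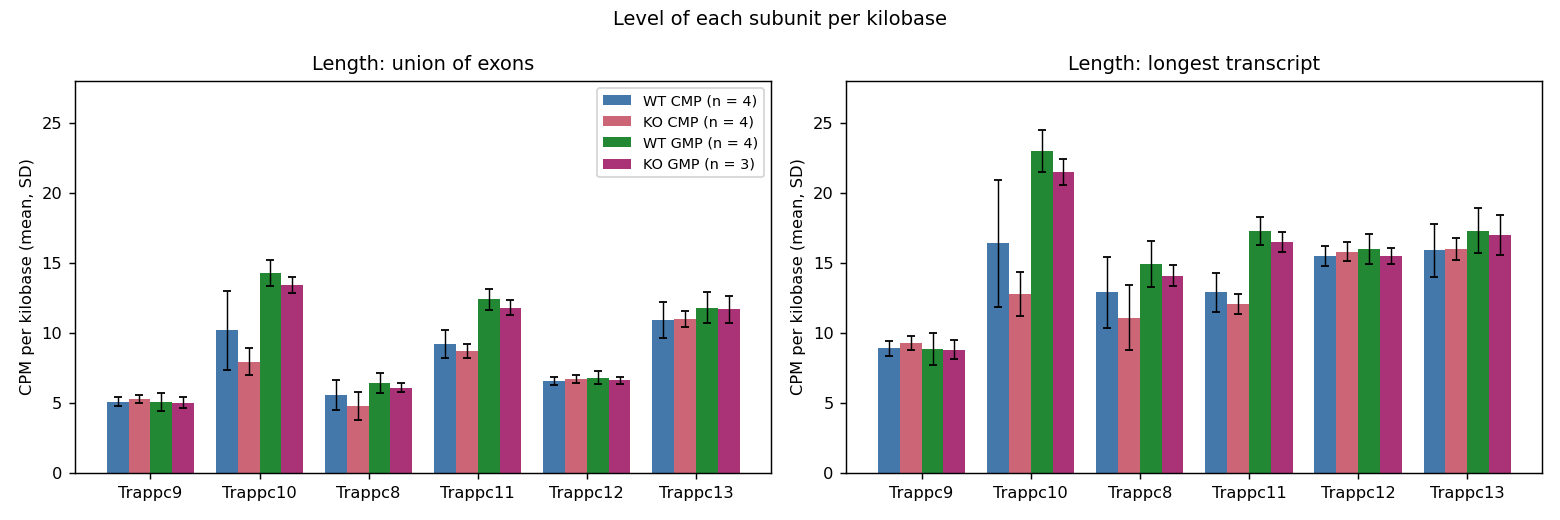
Mean level of each subunit in CPM per kilobase (bars, with SD over 3 or 4 libraries) in the 4 groups, with length as the union of exons on the left and as the longest transcript on the right. Trappc10 is the tallest in both GMP groups in both panels, and Trappc12 and Trappc8 move up against the rest when the longest transcript is used.

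The core subunits were mostly more abundant per length in WT CMP, and less clearly so in WT GMP. In WT CMP, Trappc3 measured 27.6 ± 2.24, Trappc6a 23.0 ± 3.46 and Trappc1 19.9 ± 3.71 CPM per kilobase (n = 4), and 6 of the 8 tested core genes exceeded the mean of each of the 6 specific subunits. The exceptions were Trappc2l at 9.59 ± 1.08 and Trappc2 at 1.68 ± 0.527 CPM per kilobase. With the longest transcript Trappc5, at 15.6 CPM per kilobase, also fell inside the range of the specific subunits. In WT GMP, Trappc5 at 13.7, Trappc6b at 14.0 and Trappc2 at 2.15 lay below Trappc10 at 14.3 CPM per kilobase. With the longest transcript Trappc2l, at 18.6, was also below Trappc10, at 23.0 CPM per kilobase.

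Trappc10, the TRAPPII subunit that joins the core together with Trappc9, varied most over the libraries, from 55.1 to 126 CPM or 2.29-fold. Its gene lies on chromosome 10 (78186725 to 78244641, minus strand, GRCm38, ENSMUSG00000000374.8). It measured 106, 98.5, 68.5 and 58.1 CPM in WT CMP libraries 1 to 4 and 68.4, 73.5, 61.4 and 55.1 CPM in KO CMP libraries 1 to 4. WT CMP libraries 1 and 2 were thus above all other CMP libraries, while WT CMP 3 and 4 lay among the KO values. In GMP it measured 115, 126, 116 and 108 CPM in WT and 104, 113 and 108 CPM in KO libraries 1, 3 and 4. The GMP groups overlapped each other, and in each genotype every GMP library was above every CMP library.

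Trappc9, the other TRAPPII subunit, also known as a binding partner of the NF-kB kinases NIK and IKK-beta, was nearly level. Its gene spans chromosome 15 from 72589620 to 73061204 (minus strand, ENSMUSG00000047921.16). It measured 37, 40.8, 43 and 40.5 CPM in WT CMP libraries 1 to 4 and 41.6, 45.1, 41.1 and 39.7 CPM in KO CMP. The highest value was 47.8 CPM, in WT GMP library 2, and the other WT GMP libraries held 38.9, 37.3 and 36.3 CPM. KO GMP libraries held 43.3, 38.6 and 37.6 CPM, inside the WT range. Highest over lowest was 1.32. As a description chosen after the values were seen, the ratio of Trappc10 to Trappc9 CPM was 1.54 ± 0.122 in KO CMP (n = 4), 2.07 ± 0.674 in WT CMP (n = 4), 2.74 ± 0.293 in KO GMP (n = 3) and 2.92 ± 0.194 in WT GMP (n = 4). In WT CMP it was 2.85 and 2.41 in libraries 1 and 2 and 1.59 and 1.43 in libraries 3 and 4.

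Trappc8, the TRAPPIII subunit known to act in autophagy and Atg9 traffic (chromosome 18, 20817223 to 20896093, minus strand, ENSMUSG00000033382.15), was second in spread, at 1.84-fold. It measured 80.4, 75.4, 58.3 and 53.3 CPM in WT CMP libraries 1 to 4 and 56.9, 74.7, 51.7 and 46.9 CPM in KO CMP. In GMP it measured 82.4, 86.2, 73.3 and 67.3 CPM in WT and 77.1, 73.6 and 69.4 CPM in KO libraries 1, 3 and 4. Every pair of groups of the same genotype or the same sort overlapped.

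Trappc11, a TRAPPIII subunit needed for transport out of the endoplasmic reticulum and for protein glycosylation (chromosome 8, 47490115 to 47533470, minus strand, ENSMUSG00000038102.15), kept CMP and GMP fully apart. It measured 66.5, 64.2, 56 and 52.6 CPM in WT CMP libraries 1 to 4 and 56, 61.3, 54.3 and 54.2 CPM in KO CMP. In GMP it measured 78.5, 84.4, 84.6 and 74.9 CPM in WT and 72.9, 76.6 and 79.8 CPM in KO libraries 1, 3 and 4. The lowest GMP library, KO GMP 1, was above the highest CMP library, WT CMP 1.

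Trappc12, a TRAPPIII subunit that also has a known role in mitosis (chromosome 12, 28690628 to 28750472, minus strand, ENSMUSG00000020628.16), varied least, from 62.2 to 74.8 CPM or 1.2-fold. Its group means were 65.9 ± 2.9 CPM in WT CMP (n = 4) and 67.5 ± 2.92 CPM in KO CMP (n = 4). Trappc13, the least studied TRAPPIII subunit (chromosome 13, 104142149 to 104178469, minus strand, ENSMUSG00000021711.16), ranged from 49.9 CPM in WT CMP library 3 to 68.3 CPM in WT GMP library 1. For both genes all 4 groups overlapped. The ratio of Trappc11 to Trappc12 CPM, also chosen after the values were seen, ran from 0.811 to 0.98 over the CMP libraries and from 1.05 to 1.26 over the GMP libraries.

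**Figure D2:**
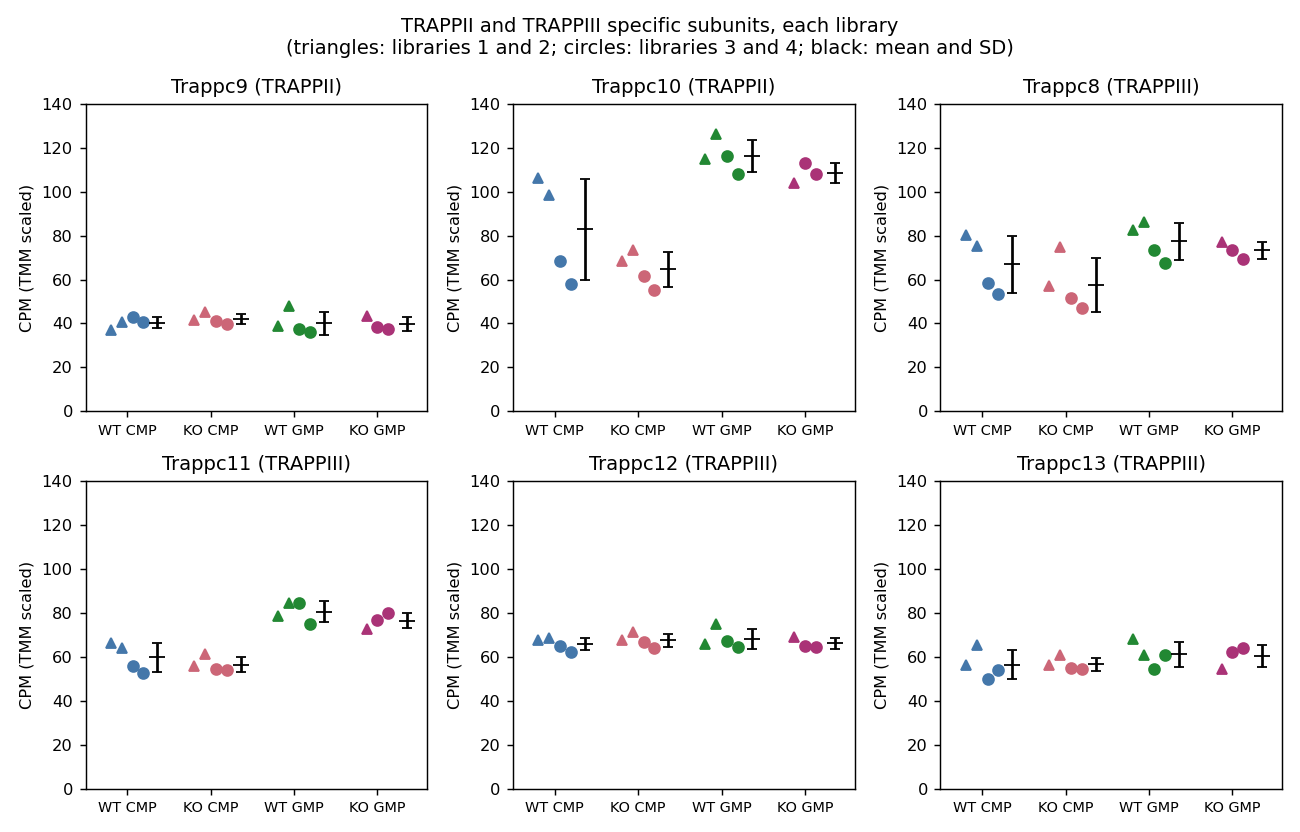
CPM (TMM scaled) of each subunit in each library by group, with triangles for libraries 1 and 2, circles for libraries 3 and 4, and the group mean and SD in black. Trappc10 and Trappc11 are higher in GMP than in CMP, the WT CMP triangles of Trappc10 (106 and 98.5 CPM) sit well above the circles (68.5 and 58.1 CPM), and Trappc9 and Trappc12 are nearly flat.

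KO against WT, the question of the series, moved no specific subunit past the threshold when all libraries were used, and in that fit Trappc1 itself did not pass either. In CMP, edgeR's quasi-likelihood test with Benjamini-Hochberg adjustment called 0 of the 6 subunits, against 0% of the 15181 genes tested (adjusted p under 0.05, either direction); 1 subunit and 1761 genes had an unadjusted p under 0.05, and DESeq2 called 0 subunits and 368 genes. The subunit nearest the threshold was Trappc10, with a log2 change (KO minus WT) of -0.36 ± 0.16 (SE), a 95% interval of -0.69 to -0.02 and an adjusted p of 0.399. Trappc8 measured -0.22 ± 0.15 (interval -0.54 to 0.11). Trappc9, Trappc11, Trappc12 and Trappc13 measured between -0.08 and 0.05, and their intervals together run from -0.26 to 0.25. The median over the 6 subunits was -0.04, against 0.01 over all genes tested. Of the 6, 0 had KO CMP and WT CMP libraries that did not overlap, against 6.85% of genes.

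In GMP the 6 log2 changes (KO minus WT) lay between -0.10 for Trappc10 (interval -0.46 to 0.27) and -0.01 for Trappc9 (interval -0.23 to 0.21). EdgeR called 0 of the 6 subunits against 0% of genes; 0 subunits and 985 genes had an unadjusted p under 0.05, and DESeq2 called 0 subunits and 60 genes. Of the 6, 0 had groups that did not overlap, against 7.34% of genes. The KO effect in CMP minus that in GMP was tested directly, and edgeR again called 0 of the 6 subunits against 0% of genes (0 subunits and 451 genes at an unadjusted p under 0.05; DESeq2 0 subunits and 3 genes). It was -0.26 ± 0.23 for Trappc10 (adjusted p = 1).

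Trappc10 and Trappc11 rose from CMP to GMP in both genotypes. In WT, Trappc10 was 1.41-fold higher in GMP (log2 change 0.49 ± 0.16, adjusted p = 0.0334) and Trappc11 1.35-fold (0.43 ± 0.08, adjusted p = 0.00247). These made 2 of 6 subunits called higher, against 11.3% of genes, and both also had groups that did not overlap, against 14.8% of genes. In KO, Trappc10 was 1.68-fold higher in GMP (0.75 ± 0.17, adjusted p = 0.00609) and Trappc11 1.35-fold (0.44 ± 0.09, adjusted p = 0.0036). Again 2 of 6 were called higher, against 10.7% of genes, and the same 2 had groups that did not overlap, against 13.4% of genes. The 1.41-fold of Trappc10 in WT averages unlike number sets. In numbers 1 and 2 it was 115 and 126 CPM in WT GMP against 106 and 98.5 CPM in WT CMP. In numbers 3 and 4 it was 116 and 108 CPM against 68.5 and 58.1 CPM. For Trappc11 the WT values were 78.5 and 84.4 against 66.5 and 64.2 CPM, and 84.6 and 74.9 against 56 and 52.6 CPM. The step was not tested by number set. In bulk samples, fewer cells of a type and less RNA per cell cannot be told apart.

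The call for Trappc10 depended on single libraries in WT and not in KO. In KO it passed whichever single library was left out, at 0.69 to 0.82, and reached 0.93 without the 3 Xist-high libraries. In WT it no longer passed without WT CMP library 3 (0.41, adjusted p = 0.108), WT CMP library 4 (0.34, adjusted p = 0.0835) or any 1 of the 4 WT GMP libraries (0.45 to 0.51, adjusted p = 0.0542 to 0.0806). Trappc11 passed in both genotypes whichever library was left out, at 0.36 to 0.48 in WT and 0.41 to 0.48 in KO.

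The other subunits passed neither test of GMP against CMP. Trappc8 measured 0.21 ± 0.15 in WT (adjusted p = 0.341) and 0.35 ± 0.16 in KO (adjusted p = 0.15). With library number as a replicate block in edgeR's fit, Trappc8 in KO was 0.45 ± 0.09 (adjusted p = 0.00423) and was called higher as well. Without KO CMP library 2, the KO CMP library with most Trappc8, it was 0.50 (adjusted p = 0.0319). Trappc9 measured -0.01 ± 0.09 in WT and -0.07 ± 0.10 in KO, Trappc12 0.05 ± 0.07 and -0.03 ± 0.07, and Trappc13 0.12 ± 0.09 and 0.09 ± 0.10. Their 95% intervals over both genotypes run from -0.29 to 0.32, within which a change could have been missed.

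**Figure D3:**
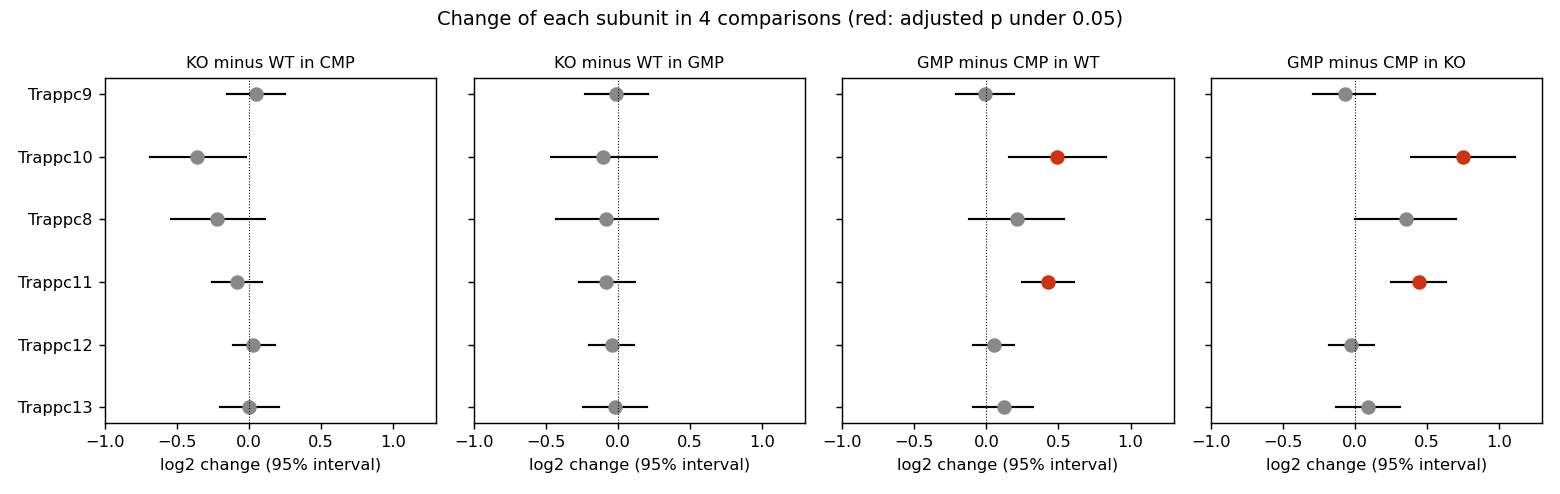
Log2 change of each subunit with its 95% interval in the 4 comparisons, red where the adjusted p is under 0.05. Only Trappc10 and Trappc11 in the GMP minus CMP panels are red, and the Trappc10 interval in CMP (KO minus WT) ends at -0.02.

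The spread of Trappc10, Trappc8 and Trappc11 within WT CMP followed the library numbers. The split into number sets is not in the labels and was chosen with earlier results of these data known. The p-values by number set therefore do not test a grouping fixed in advance. WT CMP libraries 1 and 2 minus 3 and 4 gave log2 differences of 0.69 ± 0.10 for Trappc10 (adjusted p = 0.000424), 0.48 ± 0.11 for Trappc8 (adjusted p = 0.0109) and 0.27 ± 0.08 for Trappc11 (adjusted p = 0.0355). These made 3 of 6 subunits higher, against 12.3% of genes (n = 2 against 2, in a fit of all 15 libraries with a coefficient for each group and number set). The Trappc10 difference passed whichever library was left out (0.57 to 0.81). The Trappc8 difference no longer passed without WT CMP library 1 (0.44) or 4 (0.41), and that of Trappc11 without WT CMP library 1 (0.24), 2 (0.29) or 4 (0.21) or KO GMP library 3 or 4 (0.27 each). Trappc13 measured 0.23 ± 0.10 (adjusted p = 0.108) and passed without WT CMP library 1 (0.34, adjusted p = 0.0489). In WT GMP the same split called 0 of 6 subunits higher by edgeR, against 3.16% of genes (2 subunits, Trappc8 and Trappc9, at an unadjusted p under 0.05; 0 subunits by DESeq2). There Trappc8 measured 0.26 ± 0.11 (adjusted p = 0.174) and Trappc10 0.11 ± 0.10 (adjusted p = 0.517).

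KO against WT within a number set, a split chosen with earlier results of these data known, called a subunit once. In CMP numbers 1 and 2 (n = 2 in each genotype), Trappc10 was 68.4 and 73.5 CPM in KO against 106 and 98.5 CPM in WT, a log2 change of -0.52 ± 0.10 (adjusted p = 0.00207). This was 1 of 6 subunits called lower, against 10.2% of genes. Trappc8 measured -0.24 ± 0.11 (adjusted p = 0.171) and Trappc11 -0.16 ± 0.08 (adjusted p = 0.225); without KO CMP library 2, Trappc8 measured -0.45 and was called as well. In CMP numbers 3 and 4 (n = 2 in each genotype), Trappc10 was 61.4 and 55.1 CPM in KO against 68.5 and 58.1 CPM in WT, a log2 change of -0.12 ± 0.10 (adjusted p = 0.649). EdgeR called 0 of 6 subunits there, against 0.00659% of genes (0 subunits at an unadjusted p under 0.05; 0 by DESeq2).

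The difference of the CMP effects between number sets was -0.40 ± 0.13 for Trappc10 (interval -0.70 to -0.11, adjusted p = 0.0995), which did not pass. EdgeR called 0 of 6 subunits in that test, against 7.64% of genes (1 subunit, Trappc10, at an unadjusted p under 0.05; 0 by DESeq2). Without WT CMP library 3 it was -0.53 and passed. Both sides of the comparison in numbers 1 and 2 stand apart. Trappc10 in KO CMP 1 and 2 (68.4 and 73.5 CPM) was above KO CMP 3 and 4 (61.4 and 55.1 CPM), and WT CMP 1 and 2 (106 and 98.5 CPM) were above WT CMP 3 and 4 (68.5 and 58.1 CPM) by more. WT CMP 1 and 2 also held Fcgr3 at 99.5 and 115 CPM and late neutrophil genes (S100a8, S100a9, Ngp, Camp, Ltf) at a sum of 219 and 250 CPM, against 22.7 and 31.6 CPM in WT CMP 3 and 4. KO CMP 1 and 2 held those genes at 2.53 and 4.63 CPM, Xist at 109 and 204 CPM and stromal genes at 123 and 175 CPM. Genotype and what else sets these 4 libraries apart cannot be told apart.

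In GMP, KO has just library 1 in the lower number set, and its variation is taken to equal that of the other libraries. For numbers 1 and 2 edgeR called 0 of 6 subunits, against 20% of genes (0 subunits at an unadjusted p under 0.05; 0 by DESeq2). Trappc13 measured -0.24 ± 0.12 (adjusted p = 0.172) and Trappc10 -0.21 ± 0.12 (adjusted p = 0.239). In GMP numbers 3 and 4 edgeR called 0 of 6, against 0.0132% of genes (0 subunits at an unadjusted p under 0.05; 0 by DESeq2), and Trappc10 measured -0.01 ± 0.10. The difference between the GMP sets called 0 of 6, against 10.6% of genes (1 subunit, Trappc13, at an unadjusted p under 0.05; 0 by DESeq2), and Trappc13 measured -0.38 ± 0.15 (adjusted p = 0.147).

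Genes of the granule stage also differed between the number sets, not always in the direction of Trappc10. The summed CPM of Mpo, Elane, Prtn3, Ctsg and Ms4a3 was 21900 and 24300 in WT CMP libraries 1 and 2, 11400 and 12300 in WT CMP 3 and 4, 4590 and 5220 in KO CMP 1 and 2 and 11700 and 12200 in KO CMP 3 and 4. In GMP it was 39700 to 42900 in WT, 21700 in KO library 1 and 44400 and 45100 in KO libraries 3 and 4. KO GMP library 1, with a sum close to those of WT CMP 1 and 2, held Trappc10 at 104 CPM, near their 106 and 98.5 CPM. KO CMP 1 and 2 had the lowest sums, while their Trappc10 (68.4 and 73.5 CPM) lay at or above the upper end of CMP libraries 3 and 4 of both genotypes (55.1 to 68.5 CPM). Early progenitor genes (Gata2, Meis1, Hlf, Angpt1, Mecom) summed to 895 and 799 CPM in KO CMP 1 and 2, 429 to 522 CPM in the other CMP libraries, 461 CPM in KO GMP 1 and 119 to 152 CPM in the other GMP libraries. The part of cell stage in the levels of the subunits was not tested.

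**Figure D4:**
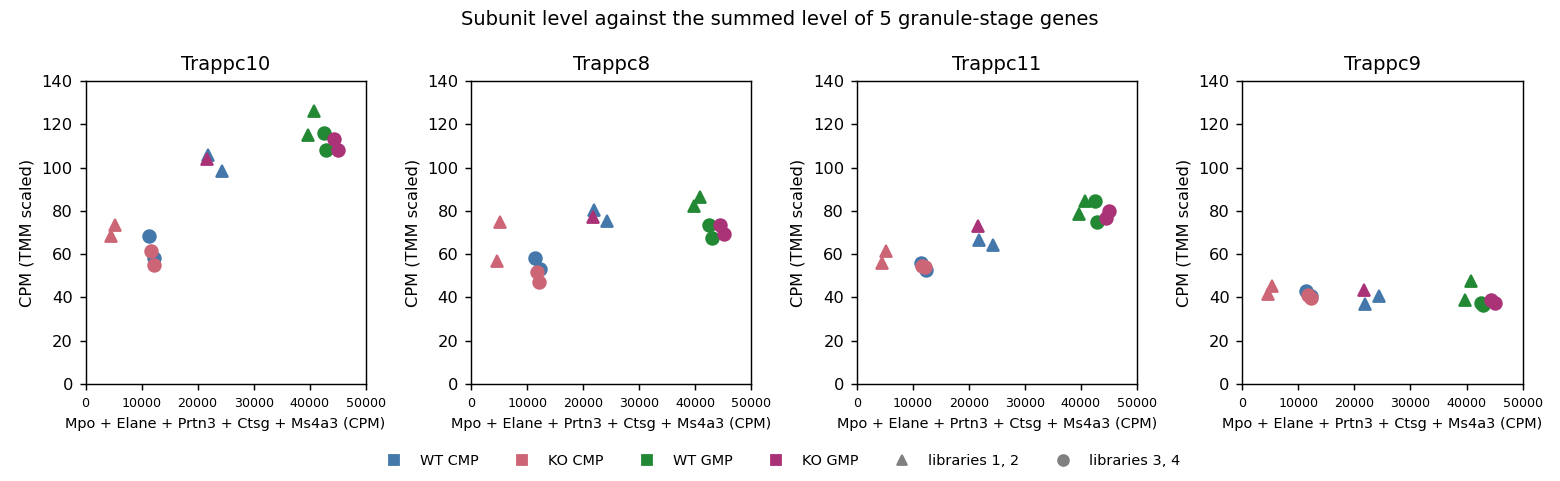
CPM (TMM scaled) of Trappc10, Trappc8, Trappc11 and Trappc9 in each library against the summed CPM of 5 granule-stage genes, with colour for the group and shape for the library numbers. The 2 WT CMP triangles and the KO GMP triangle lie together near 21700 to 24300 CPM with Trappc10 at 98.5 to 106 CPM. The KO CMP triangles have the lowest sums, 4590 and 5220 CPM, with Trappc10 at 68.4 and 73.5 CPM. Trappc9 is flat across the whole range.

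The partners of these complexes were read from lists of related genes. For KO against WT over all libraries, edgeR called 0 of the 74 tested list genes in CMP (5 at an unadjusted p under 0.05, 1 by DESeq2, which was Trappc1) and 0 in GMP (1 at an unadjusted p under 0.05, 0 by DESeq2). The counts between CMP and GMP that follow stand against 11.3% of genes called higher in WT and 10.7% in KO, and against 2151 and 1594 of the 15181 genes called lower. Between CMP and GMP, 2 of 8 tested core subunits were higher in WT, Trappc2l (log2 change 0.72 ± 0.17) and Trappc4 (0.34 ± 0.11), and 1 in KO, Trappc2l (0.55 ± 0.18). The core list's median change was 0.30 in WT and 0.20 in KO, and that of the 6 specific subunits 0.16 and 0.22, against -0.02 over all genes tested in each genotype. Trappc3l, the 9th listed core gene, was not tested.

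Among 8 Rab GTPases and exchange partners, 2 were higher in GMP and 1 lower in each genotype. Rab1, the main substrate of TRAPP, was higher by 0.38 ± 0.07 in WT and 0.31 ± 0.08 in KO, and Rab1b by 0.37 ± 0.10 in KO. Rab1b was called higher in WT too, with a mean of 207 CPM in GMP against 168 CPM in CMP. Rab43 was lower in WT at -0.54 ± 0.09. Of 8 autophagy partners of TRAPPIII, 2 were higher and 2 lower in WT, and 2 higher and 0 lower in KO. Atg9a, the autophagy scramblase carried on vesicles, was higher by 0.55 ± 0.11 in WT and 0.45 ± 0.12 in KO, while the kinase Ulk1 was lower in WT at -0.61 ± 0.13.

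Both vesicle coats that work on either side of TRAPP held genes that were higher in GMP. Of 10 COPI genes, 6 were higher and 0 lower in each genotype (median 0.36 in each), with the GTPase Arf1 (0.41 ± 0.07 in WT, 0.35 ± 0.07 in KO) and Copz1 (0.46 ± 0.09 and 0.42 ± 0.09) having the smallest p in WT. Of 11 COPII genes, 5 were higher and 1 lower in WT (median 0.30), and 4 higher and 0 lower in KO (median 0.36), with Sec13 at 0.51 ± 0.07 in WT and 0.48 ± 0.07 in KO. Of 21 genes of other tethering complexes, 3 were higher and 0 lower in each genotype, with Cog7 at 0.50 ± 0.10 in WT and 0.77 ± 0.10 in KO and Vps53 at 0.36 ± 0.09 and 0.51 ± 0.10. Of 8 NF-kB kinases and factors linked to Trappc9, 0 were higher and 2 lower in each genotype, namely Relb (-1.43 ± 0.26 in WT, -1.66 ± 0.29 in KO) and the NIK gene Map3k14 (-0.75 ± 0.14 and -0.45 ± 0.15). Trappc9 itself measured -0.01 and -0.07.

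The lists were also read for KO against WT in CMP numbers 1 and 2, the comparison in which Trappc10 was called lower. EdgeR called 10 of the 74 tested list genes there. Over all 15181 genes it called 1552 lower and 1249 higher. Of 8 core subunits 2 were lower, Trappc1 itself (-2.25 ± 0.21) and Trappc2 (-0.72 ± 0.20). COPII had 3 genes lower and 1 higher, with Sec31b at -1.41 ± 0.23, and COPI had 0 called by edgeR (1 at an unadjusted p under 0.05, 0 by DESeq2). The other tethering complexes had 2 lower, Exoc8 (-0.53 ± 0.13) and Vps53 (-0.28 ± 0.08). The Rab list had Rab11a, a substrate of TRAPPII, higher by 0.50 ± 0.09 and Rab1b lower at -0.27 ± 0.07. Of 8 autophagy partners edgeR called 0 (3 at an unadjusted p under 0.05, 2 by DESeq2). Of 8 NF-kB genes it also called 0 (2 at an unadjusted p under 0.05, 1 by DESeq2).

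The genes with the most similar profile were sought among 10916 named genes, by the root-mean-square difference of centred log2 CPM over the 15 libraries. The nearest to Trappc10 were Aff1 (0.075) and Tbc1d2b (0.076), against a spread of 0.402 for Trappc10 about its own mean on the same scale. Trappc11 was nearest to Ganab (0.054), the alpha subunit of glucosidase II of the endoplasmic reticulum, and Nadk (0.056), against its own spread of 0.24. Trappc8 was nearest to Rspry1 (0.067) and Slain2 (0.071), against 0.26. Trappc9 (Zfp27 at 0.059 and Gnptab at 0.069), Trappc12 (Ctdp1 at 0.046 and Eif4b at 0.051) and Trappc13 (Mff at 0.047 and Pcnp at 0.061) had own spreads of only 0.107, 0.064 and 0.121. A gene that did not vary at all would lie at that distance from each of these 3 subunits. No one of the 6 was among the 2 nearest of another.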

How the data were processed

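The authors deposited 1 table per library, which lists for each gene symbol an expected count, that is, an estimated count without scaling to depth. The aligner was HISAT and the build mm10, per the submitters' processing notes. Versions, the counting tool and its handling of strand were not given in the sources used here. A SMARTER mRNA-Seq kit was used, per the labels' protocols. Of 40915 deposited values between 1 and 40, 38% were multiples of 4. On this basis 1 fragment was assumed to be about 4 units, which gives 15.3 to 30.1 M fragments a library. The share of multiples does not establish that unit. No 2 libraries were duplicates.

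Counts were rounded, filtered with filterByExpr and scaled by TMM in edgeR 4.0.16 (R 4.3.3). All 15 libraries entered 1 quasi-likelihood fit with a coefficient per group, and a fit with a coefficient per group and number set (1 and 2, or 3 and 4). P-values are two-sided and Benjamini-Hochberg adjusted over 15181 genes at 0.05, and intervals are 95%. The scripts were tested on simulated data. Group and number come from the sample titles. Positions and lengths come from GENCODE M21 (GRCm38), in which none of the 6 subunits shares exonic bases with another gene.

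Same-numbered libraries deviated together from their group means in every pair (correlation across genes 0.18 to 0.35 for KO and WT in CMP, 0.13 to 0.18 in GMP, 0.14 to 0.21 for CMP and GMP in WT and 0.33 to 0.42 in KO). The same number was the best partner in 2 of 4, 1 of 3, 3 of 4 and 2 of 3 cases, in that order. These correlations cannot tell pairing by number from the split between number sets. Library number therefore entered as a replicate block only in an alternative fit. The labels do not say what a number marks. The text names the 6 subunits and Trappc1, and at most 2 called genes per list and comparison by smallest p. Rab1b between CMP and GMP in WT is named beyond those 2. Also named are the 2 nearest genes by profile with a mean of at least 1 CPM (0.5 added before logs). Marker genes and Xist are given beside the results. The members, lists, markers and number sets were chosen with earlier results of these data known. Alternatives were DESeq2 1.42.0, RLE scaling, no filter, counts divided by 4, a replicate block, number set as a covariate, libraries left out, and length as the longest transcript.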

Additional observations from a re-analysis of the deposited data

How the results depend on the processing

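Of 946 recomputed single subunit values, 906 kept their direction and their side of the threshold. Of 580 recomputed counts and levels, 506 stayed near the main value. For levels this meant within the SD over libraries, and for counts within a fixed ratio. Counts of subunits that stayed at none called are among the 506. All 12 levels moved when the longest transcript was used. DESeq2 called more genes: 368 for KO against WT in CMP, 60 in GMP, 3 for the difference between sorts, 135 in CMP numbers 3 and 4, 42 in GMP numbers 3 and 4, and 853 higher in WT GMP numbers 1 and 2. Without KO CMP libraries 1 and 2 and KO GMP library 1, 1 gene was called in CMP and 1 for the difference, and KO against WT measured -0.01 for Trappc9 and -0.02 for Trappc12 in CMP and 0.04 for Trappc13 in GMP, all of opposite sign to the values over all libraries. With the replicate block, KO against WT in GMP changed sign for Trappc8 (0.02), Trappc9 (0.04) and Trappc13 (0.02), and Trappc8 between CMP and GMP in KO passed (0.45). The block changed no other call of a subunit. With number set as a covariate 5 genes were called in GMP, Trappc9 there was 0.01, and Trappc8 between CMP and GMP in KO passed (0.42). Without the filter 4 genes were called in CMP and 12 in GMP numbers 3 and 4, and 9 in the latter after division by 4. With the longest transcript, levels per kilobase in WT CMP were 12.9 for Trappc8, 8.91 for Trappc9, 16.4 for Trappc10, 12.9 for Trappc11, 15.5 for Trappc12 and 15.9 for Trappc13, and in WT GMP 14.9, 8.85, 23.0, 17.3, 16.0 and 17.3 in the same order.

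Leaving out 1 library at a time gave 0 to 50 genes for KO against WT in CMP (50 without WT CMP 4), 0 to 1 for the difference between sorts (1 without KO CMP 1), 950 to 2000 higher in GMP in WT (lowest without WT CMP 3) and 969 to 2029 in KO (lowest without KO GMP 3). It gave 0 to 46 in CMP numbers 3 and 4 (46 without KO CMP 1), 1968 to 3445 in GMP numbers 1 and 2 (lowest without WT GMP 1) and 1 to 28 in GMP numbers 3 and 4 (28 without KO CMP 1 or 2). The differences between number sets held 743 to 1432 genes in CMP (lowest without KO CMP 4) and 1015 to 1989 in GMP (lowest without WT GMP 3), and numbers 1 and 2 of WT were higher for 885 to 2079 genes in CMP (lowest without WT CMP 4) and 119 to 656 in GMP (lowest without WT GMP 4). Subunits called were 1 to 2 higher in GMP in WT, 2 to 3 in KO, 1 to 2 lower in KO CMP numbers 1 and 2, 0 to 1 for the difference between CMP sets, and 1 to 3 higher in WT CMP numbers 1 and 2. Values near 0 changed sign for KO against WT in GMP, with Trappc9 at -0.07 to 0.09, Trappc12 at -0.07 to 0.01 and Trappc13 at -0.06 to 0.05. So did Trappc9 between CMP and GMP in WT (-0.11 to 0.02) and Trappc10 in KO GMP numbers 3 and 4 (-0.06 to 0.04). The cause of these moves was not tested. With 2 to 4 libraries a group, changes inside the stated intervals cannot be seen.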
